A study of Trametes gibbosa with 15 samples.

Results

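Trametes (Lenzites) gibbosa is a white-rot fungus, and 69 of 12038 of its genes with reference identifiers stayed near the level of the control 3 days after poplar wood was added to the mycelium and stood 2-fold or more above it at day 11. The table of counts lists 12885 genes in all. Members were chosen on CPM (counts scaled to a fixed library total) corrected by TMM factors, which set libraries to the middle of all genes. A member had at least 1 control count above 10, a day 3 mean from 0.5 to 1.5 times the control mean, and a day 11 mean of 5 CPM or more and at least 2 times the control mean. Its lowest day 11 library also lay above replicates 2 and 3 of day 3, and genes that ranged 100-fold or more within a group (on CPM by library totals with 0.1 added) were left out. Control, day 3 and day 11 values therefore chose these genes and are given as a description. Days 5 and 7 entered the choice only through the TMM factors and the limit on the range within a group.

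White-rot fungi are basidiomycetes that break down lignin together with cellulose and hemicellulose, for which they are known to secrete peroxidases, laccases and glycoside hydrolases. In liquid culture such enzymes are known to appear at different times, and in several species shortage of nitrogen or sugar is known to set some of them off. The files pair no identifier of the 69 with a product, so no role is given to any of them.

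Strain CB-1 was grown without shaking in a low-nitrogen medium with asparagine, succinate and glucose for 10 days. The control (CK in the labels, day 0) was harvested then, without wood, and the other groups received 2 g of chips of Populus simonii × P. nigra and were harvested 3, 5, 7 or 11 days later. All 5 groups thus share the strain, the medium and the 10 days of growth, and each has 3 libraries, called biological replicates in the labels and drawn from 15 bottles per group. Wood libraries were older than the control by the same number of days, no wood-free library of equal age was analysed here, and the effects of wood and of age cannot be told apart.

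Libraries held 32472274 to 48361622 estimated counts. By the codes in their labels they fall into 2 series, the first of 6 libraries (all 3 controls, and from days 3, 5 and 7 replicate 1) and the second of the other 9. The control lies wholly in the first series and day 11 wholly in the second, so the ratio of day 11 to control that chose the genes crosses the series. One day 5 library carries no replicate number in the count table and is called unnumbered. In bulk mycelium, fewer cells that express a gene and less RNA per cell cannot be told apart.

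The name "late risers" holds for some of the genes only. Their day 3 mean lay between 0.542 and 1.49 times the control mean with a median of 1.17, and in 48 of the 69 it was above the control mean. At day 11 the ratio to the control ran from 2.00 to 9.44 with a median of 2.24. It was under 2.5 in 47 genes and 3 or more in 7. The median ratio was already 1.65 at day 5 and 1.73 at day 7, and 38 genes had means in the order of days 3, 5, 7 and 11 (7.96% of all 11386 genes tested had that order), of which the day 3 and day 11 ends were fixed by the choice. Most of the genes had means between those of the control and day 11 on days 5 and 7. The choice of genes by their control and day 11 means favours such a position, and the share of all genes was not counted. The name is kept below only for the rule that chose them.

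**Figure D1:**
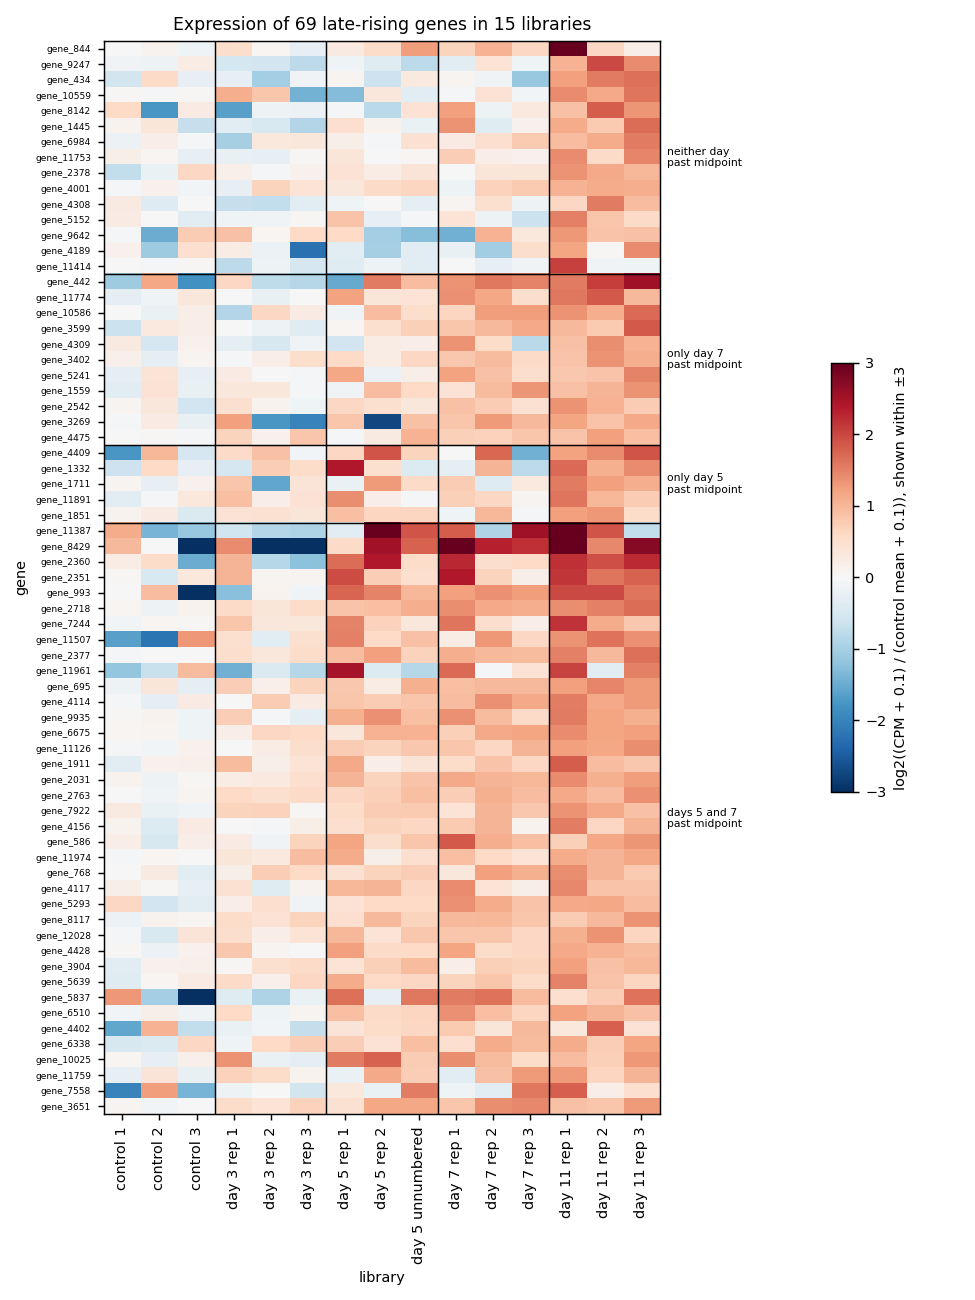
Expression of the 69 genes (rows) in the 15 libraries (columns), as log2 of CPM + 0.1 over the control mean + 0.1, in groups by whether day 5 and day 7 had reached the midpoint of the log2 rise. Libraries of day 11 are red for nearly all genes by choice of the genes. The 15 genes at the top had neither day at the midpoint, and the 38 at the bottom had both.

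On the log2 scale, the distance from control to day 11 can be taken as the whole rise of a gene. Both ends of this distance chose the genes, so it may be overstated. It also runs from the first library series to the second, on CPM without a series term. The percentages and classes below are therefore a description only. At day 5 the median gene had covered 59.0% of the distance and at day 7 68.1%. Day 5 and day 7 were both at or past the midpoint in 38 genes, only day 7 in 11, only day 5 in 5, and neither in 15. Day 5 means lay below the control in 9 genes and day 7 means in 4. At the other end, day 7 was above day 11 in 6 genes and day 5 was above day 11 in 2 (gene_5837 and gene_10025, named after their values were seen).

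**Figure D2:**
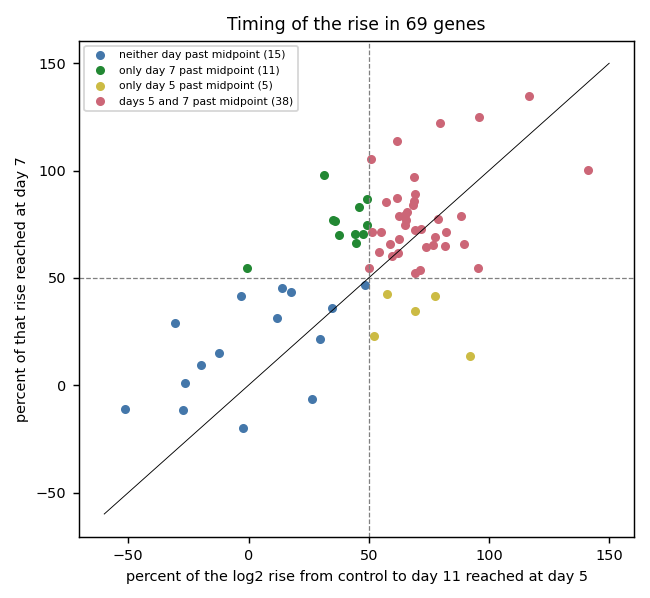
Percent of the log2 rise from control to day 11 that each of the 69 genes had reached at day 5 (x axis) and day 7 (y axis). Dashed lines mark the midpoint of 50% and the solid line marks equal values. The 15 genes at lower left were under the midpoint on both days, and points above 100% exceeded their day 11 mean.

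The 15 genes with neither day at the midpoint are nearest to the name of the group. In gene_9247 the controls stood at 13.1, 12.6 and 16.5 CPM, day 3 at 9.78, 9.42 and 8.06, day 5 at 12.8, 10.8 and 8.10, day 7 at 11.0, 18.8 and 12.8, and day 11 at 28.9, 55.6 and 37.4. The lowest day 11 library was thus above all 12 other libraries, and day 3 lay below every control. All day 11 libraries were above all day 7 libraries in 19 of the 69 genes (7.32% of all genes) and above all day 5 libraries in 29 (6.02%). A separation of day 11 from the other 12 libraries was found in 10 of the 69 genes, beside 0.826% of all genes tested, and the choice of genes favours it. Besides gene_9247 the 10 were gene_434, gene_10559, gene_2378, gene_4308, gene_6984 and gene_4001, all with neither day at the midpoint, and gene_11126, gene_695 and gene_6675, which had passed it by day 5. Except for gene_434, they are named here after their values were seen.

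In gene_434, which had the smallest ratio of day 7 to control (0.811), the controls held 2.40, 5.32 and 2.98 CPM and day 7 held 3.79, 3.34 and 1.56 CPM. Day 11 held 8.45, 10.7 and 11.4 CPM, above every earlier library. For gene_2378 day 11 was at 98.6 ± 12.1 CPM (SD, n = 3) against 43.9 ± 21.0 in the control, 46.3 ± 3.50 at day 3, 55.9 ± 4.33 at day 5 and 52.3 ± 7.39 at day 7. Its control libraries alone ranged from 26.3 to 67.1 CPM. The levels of gene_10559 varied more at the early days, with 102, 85.3 and 17.9 CPM at day 3 and 19.2, 60.0 and 38.3 CPM at day 5, around a control of 47.6 ± 1.42 CPM (SD, n = 3). At day 11 it stood at 126 ± 19.8 CPM, and its lowest day 11 library (105.5 CPM) was just above the highest day 3 library.

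The other genes with the smallest day 7 ratios were mixed. In gene_11414 the 3 libraries of day 11 held 80.6, 17.9 and 17.8 CPM, and the controls held 19.7, 18.6 and 19.8. Replicate 1 alone thus carried the day 11 mean over the limit, and the other libraries of day 11 lay below every control. The controls of gene_4189 held 14.2, 6.11 and 18.5 CPM and day 11 held 29.7, 13.3 and 35.0, so the groups overlapped. In gene_5152 day 5 reached 75.6 CPM in replicate 1 but 35.2 and 41.2 in the other libraries, and day 11 held 120.5, 75.0 and 62.4 CPM against a control of 41.9 ± 8.01 (SD, n = 3). All its day 11 libraries lay above all controls and all day 7 libraries.

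**Figure D3:**
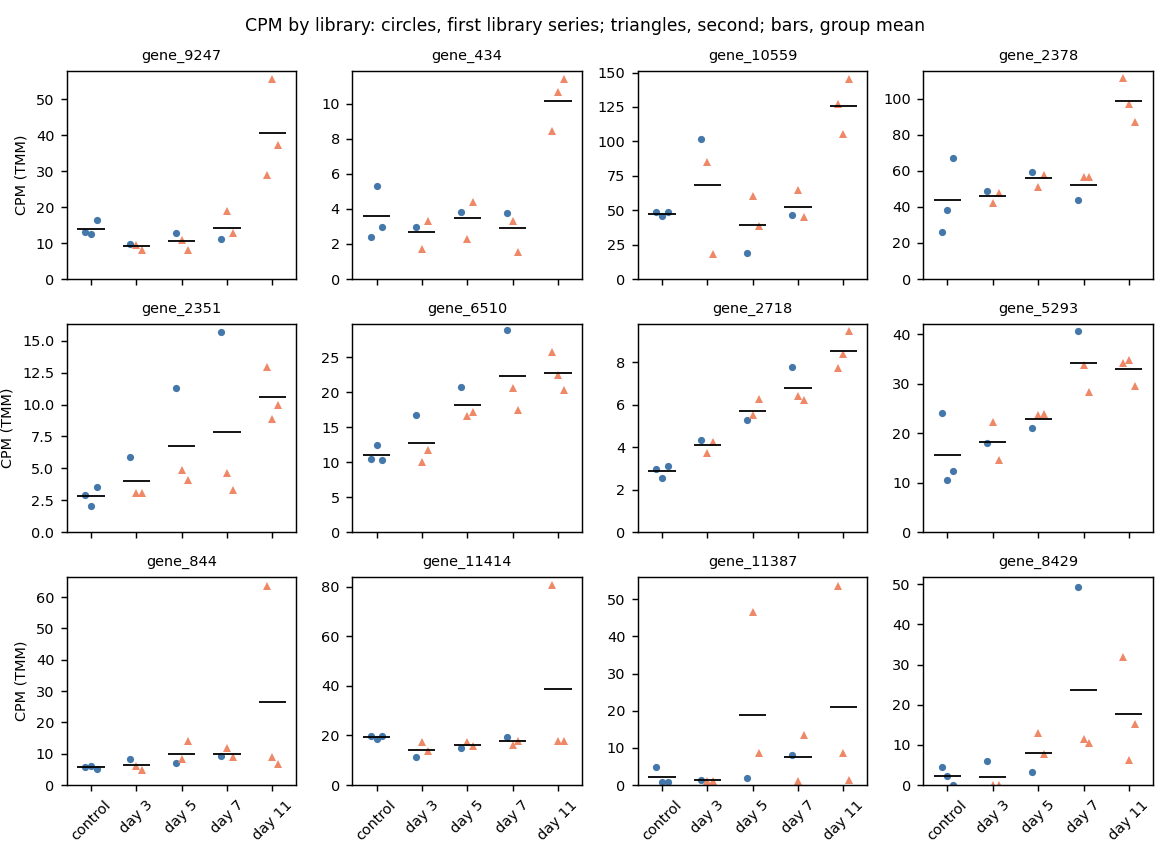
CPM of 12 of the genes in each library, by group (x axis), with circles for the first library series, triangles for the second and bars for group means. In the top row day 11 stands above all earlier libraries, in the middle row the means of days 5 and 7 are above the control, and in the bottom row single libraries set the means.

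The 4 genes with the largest ratio of day 11 to control all started from control means under 6 CPM, and in 3 of them libraries of day 11 were far apart. The first, gene_11387, went from 2.23 to 21.1 CPM, a ratio of 9.44, but its day 11 libraries held 53.4, 8.53 and 1.30 CPM and the controls 4.95, 0.793 and 0.957. The lowest day 11 library was thus below the highest control. Day 5 was as uneven, at 1.77, 46.6 and 8.54 CPM. In gene_8429 the 3 controls held 122, 58 and 0 counts and day 3 held 202, 0 and 0, against 1468, 285 and 644 at day 11. Its day 7 mean of 23.7 ± 22.2 CPM (SD, n = 3) was above its day 11 mean of 17.7 ± 13.01, and replicate 1 of day 7 alone reached 49.4 CPM.

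The day 11 libraries of gene_844 held 63.6, 8.96 and 6.62 CPM, beside controls of 5.85, 6.19 and 5.23, so its ratio of 4.58 came mostly from replicate 1. By contrast gene_2360 was even at day 11, with 12.5, 10.6 and 12.98 CPM above controls of 3.16, 4.00 and 0.884. Over the 69 genes, all 3 day 11 libraries reached 2 times the control mean in 23, and the middle one of the 3 stayed under it in 16. In 19 genes some group ranged 5-fold or more between its highest and lowest library, and in 27 no group ranged as much as 2-fold.

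Day 7 against day 5 contrasts days that, apart from the scaling and the limit on range, did not choose the genes. It asks whether levels still moved between these days. The fit takes its scaling, dispersion and series term from all 15 libraries, so libraries that chose the genes enter the fitted values, as where the log2 fold change of gene_1332 went from -0.94 to -0.64 without replicate 1 of day 3. None of the 69 was called in either direction (edgeR quasi-likelihood test with a library series term, Benjamini-Hochberg adjusted p under 0.05 over all genes and a change of 2-fold or more), where 0.00878% of all genes were called higher and 0% lower. At an unadjusted p under 0.05 there was 1 gene higher and 0 lower, beside 1.84% and 2.84% of all genes. DESeq2 also called 0 of the 69, where it called 25 over all genes in both directions together. At an unadjusted p under 0.05 it had 2 of the 69 higher, and that share of all genes was not counted. Fitted changes leaned upward all the same. They were above 0 in 48 of the 69 genes, against 49.9% of all genes, and their median was 0.17 (log2) against -0.00076 over all genes.

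**Figure D4:**
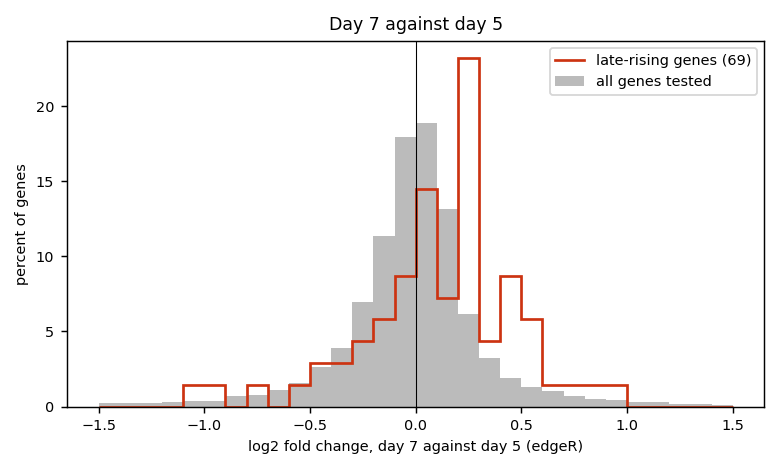
Percent of genes (y axis) by fitted log2 fold change of day 7 against day 5 (x axis, bins of 0.1), for the 69 genes (red line) and all genes tested (grey bars, within ±1.5). The red line lies mostly right of 0, with a median of 0.17, and 0 of the 69 passed the adjusted test.

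The lean was seen in both library series. Over the day 7 libraries, the median log2 ratio of the 69 genes to their day 5 means had an SD of 0.11. In the second series both day 7 libraries lay above both day 5 libraries in 24 of the 69 genes (18.3% of all genes), and the opposite held in 3 (18.1%). By means, day 7 was above day 5 in 47 of the 69 over both series (49.6% of all genes) and in 50 within the second (49.1%). In the first series, with 1 library a day, day 7 was above day 5 in 43 (51.3%). Over both series together the 3 day 7 libraries were all above the 3 day 5 libraries in 3 genes (4.35%), close to the 3.67% of all genes, so the separation of whole groups is no result about these genes. The reverse separation occurred in 0 of the 69, beside 3.32% of all genes. Genes of 1 culture are not independent replicates, and no test over the list was made.

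The member with the smallest p for day 7 above day 5 was gene_10586. It held 61.1, 126.8 and 94.9 CPM at day 5 and 103, 157 and 158 CPM at day 7, with overlap through replicate 2 of day 5 (log2 fold change 0.60, SE 0.20, edgeR unadjusted p = 0.0116, adjusted p = 1). Within each series day 7 was the higher day. For gene_5293 the groups were apart, at 21.1, 23.7 and 23.8 CPM on day 5 and 40.6, 33.8 and 28.3 CPM on day 7, although the adjusted p was again 1 (log2 fold change 0.58, SE 0.28). The third was gene_6510 (18.2 ± 2.26 and 22.3 ± 5.90 CPM, SD, n = 3; log2 fold change 0.27). In the other direction gene_10025, gene_1332 and gene_1851 had the smallest p, from 0.175 to 0.251 without adjustment. The day 5 mean of gene_1332 (85.0 CPM) rested on 181 CPM in replicate 1, and without that library its log2 fold change turned from -0.94 to 0.35. For gene_10025 the value was -0.47, and 0.0021 without replicate 2 of day 5.

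Day 7 against control shows how many of the genes had risen before day 11. The controls also chose the genes, so these counts lean upward and are no independent support. At day 7, 17 of the 69 were called higher and 0 lower, where 4.75% of all genes were called higher and 7.73% lower (edgeR, same rule). At day 5 the count was 12 higher and 0 lower, beside 3.71% and 6.29% of all genes. At an unadjusted p under 0.05 the day 7 counts were 34 higher (19.9% of all genes) and 0 lower (20.5%), and fitted changes were above 0 in 67 (50.1%). By means, 22 of the 69 were 2-fold or more above the control at day 7 (9.84% of all genes) and 12 at day 5 (8.78%). With library totals these were 52 and 43 of the 69, where the share of all genes was not counted. That scaling raised the median fitted log2 fold change of all genes to 0.48 at day 7 and 0.44 at day 5. Both comparisons share the control libraries, so their calls are not independent of each other. The median fitted log2 fold change of the 69 was 0.66 at day 5 and 0.83 at day 7, against 0.0083 and 0.0021 over all genes. In 37 genes all day 7 libraries were above all controls (22.7% of all genes), and in 31 all day 5 libraries were (20.7%).

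The number of calls depended on the term for library series, the median fold little. Without the term the median log2 fold change of the 69 was 0.77 at day 7 and 0.70 at day 5, against 0.024 and 0.034 over all genes. At an unadjusted p under 0.05, 34 and 27 genes were higher (28 at day 5 with the term), and the share of all genes was not counted without it. Without the term 11 genes were called at day 7, of which 7 were among the 17, and 2 at day 5. Calls over all genes, both directions together, were then 1498 and 1188, against 1421 and 1138 with the term. Without replicate 1 of day 7, the only first-series library of that day, 11 were called at day 7, and 1178 over all genes in both directions. In the first series alone, where the spread comes from the 3 controls, 1 gene was called at day 7 and 0 at day 5, beside 25 and 24 genes higher at an unadjusted p under 0.05 and 0 and 1 lower (edgeR). As values within that series, replicate 1 of day 7 was above all 3 controls in 51 of the 69 genes (37.2% of all genes) and that of day 5 in 45 (35.6%). It was 2-fold or more above the control mean in 24 at day 7 (9.54%) and in 19 at day 5 (8.62%). With library totals as the scaling, which moved the median log2 fold change of all genes at day 7 from 0.0021 to 0.48, 39 and 31 of the genes were called higher.

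Among the 8 genes with the largest ratio of day 7 to control, 3 were called. The call of gene_2351 was kept whichever of the 15 libraries was left out. It went from 2.94, 2.08 and 3.57 CPM in the control to 15.7, 4.62 and 3.26 CPM at day 7 (log2 fold change 2.10 with an SE of 0.30, adjusted p by edgeR 0.000408, but 0.079 in the fit without the series term). Its first-series libraries were high, at 5.88, 11.3 and 15.7 CPM on days 3, 5 and 7, while the second series held 3.03 and 3.03, then 4.84 and 4.07, then 4.62 and 3.26, and 12.96, 8.90 and 9.96 CPM at day 11. In the first series this gene was thus above all controls by day 3, while in the second its libraries of days 3 to 7 overlapped the controls or lay just above them. In the first series alone the log2 fold change of gene_2351 at day 7 was 2.45.

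For gene_586 the controls held 4.59, 2.83 and 4.602 CPM and day 7 held 14.6, 8.59 and 7.52 CPM, with no overlap (log2 fold change 1.59 with an SE of 0.32, adjusted p by edgeR 0.00331, but 0.077 when replicate 1 of day 7 was left out). Its day 11 mean of 8.65 ± 1.79 CPM (SD, n = 3) was below its day 7 mean. The call of gene_2360 (log2 fold change 2.07, SE 0.68, adjusted p = 0.0398 in the same test) did not survive 11 of the 15 single omissions, namely of any library of days 3, 7 or 11 or control replicate 1 or 3, with adjusted p up to 0.256. The other 5 genes were not called by edgeR with TMM. In gene_442 and gene_5837 a single control stood high, at 10.0 CPM in replicate 2 and at 89.9 CPM in replicate 1, and without those libraries the edgeR adjusted p fell from 0.34 to 0.0478 and from 0.291 to 0.0246. With limma on log2(FPKM + 1) the adjusted p of gene_5837 was 0.0354. That of gene_8429 was 0.0809 with edgeR and 0.0337 without replicate 1 of day 5, while DESeq2 (0.0079), edgeR with library totals (0.0447) and limma on log2(FPKM + 1) (0.0085) called it. For gene_993 the edgeR adjusted p was 0.359, against 0.029 with limma on log2(FPKM + 1), with controls of 6.06, 11.6 and 0.405 CPM and day 7 at 14.4, 15.7 and 14.5 CPM. The adjusted p of gene_11387 was 0.56.

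Of the 17 calls at day 7, 8 were kept in all 15 fits that leave out 1 library. Besides gene_2351 they were gene_2718, gene_4428, gene_2031, gene_6510, gene_11774, gene_5241 and gene_10025. Of these, gene_4428, gene_5241, gene_6510 and gene_10025 lost the call without the series term, as gene_2351 did, and gene_2031 and gene_10025 lost it with the replicate block. For gene_2031 limma on log2(FPKM + 1) gave a log2 fold change of 0.56 and an adjusted p of 0.342. Apart from gene_6510 and gene_10025 they are named after their values were seen. The steadiest climb among them was that of gene_2718, from 2.88 ± 0.277 CPM in the control through 4.10 ± 0.338, 5.68 ± 0.522 and 6.79 ± 0.843 to 8.53 ± 0.877 CPM at day 11 (SD, n = 3 each; day 7 log2 fold change 1.28 with an SE of 0.18, adjusted p by edgeR 0.000388). All 3 of its day 3 libraries were already above all controls. In gene_4428 the first-series libraries again led, with 12.3, 16.5 and 15.9 CPM on days 3, 5 and 7 against 7.06 to 10.9 in the second series on those days, and day 11 held 15.6, 14.6 and 13.6 CPM (day 7 log2 fold change 1.22, SE 0.14, edgeR adjusted p = 9.96e-05). Without the series term the value of gene_4428 was 0.80, under the 2-fold limit, with an edgeR adjusted p of 0.0358. The calls at day 7 of gene_7244, gene_4117, gene_2377, gene_9935, gene_5293, gene_695, gene_586 and gene_2360 were lost without replicate 1 of day 7. That of gene_1911 did not survive 11 of the 15 single omissions, with edgeR adjusted p up to 0.115. These genes, apart from those of the rule on names, were also picked after their values were seen.

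Levels can be compared between genes only per length, for which the deposited FPKM values (fragments per length and depth) were used. Day 11 means ran from 2.29 to 258 FPKM with a median of 11.2, and control means from 0.321 to 97.6 with a median of 3.28. FPKM over all genes were not summarised, so these levels are not ranked against other genes. The 5 highest at day 11 were gene_7922, gene_3269, gene_7558, gene_10586 and gene_768. In gene_7922 the mean went from 97.6 ± 33.0 FPKM in the control to 157 ± 38.1 at day 3, 187 ± 9.50 at day 5, 202 ± 39.1 at day 7 and 258 ± 52.0 at day 11 (SD, n = 3). Next came gene_3269 at 141 ± 22.5 FPKM, gene_7558 at 123 ± 87.3, gene_10586 at 112 ± 27.2 and gene_768 at 68.6 ± 16.9. The first 3 of these 4 did not differ beyond their spread. In gene_7558 the highest day 11 library was replicate 3 in FPKM but replicate 1 in CPM. The rank and spread given here for gene_7558 thus hold for FPKM only, and the cause was not tested.

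The genes highest in FPKM among the 69 were unlike in how steady they were. In gene_3269 the day 3 libraries held 173, 21.9 and 18.4 CPM and day 5 held 132, 11.0 and 136, while day 7 held 132, 178 and 145 CPM and day 11 held 167, 134.5 and 162 CPM. Its day 3 mean near the control (71.2 against 73.9 CPM) thus averaged 1 library above every control and 2 below them, and its day 11 libraries lay within the range of day 7. For gene_7558 the controls held 80.1, 758 and 121 CPM and day 11 held 1102, 369 and 452, so the groups overlapped. This gene held the most counts of the 69. All members together held 0.1004% to 0.152% of counts in the controls and 0.295% to 0.466% at day 11, and without gene_7558 0.0905% to 0.0941% and 0.255% to 0.341%.

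Apart from the scaling and the limit on range, replicate 1 of days 5 and 7 was not used to choose the genes. It shows how far the series differ in them. It was above both second-series libraries on both days in 15 of the 69 genes (21.7%, against 26.4% of all genes) and below both on both days in 12 (17.4%, against 29% of all genes). At day 3, which did choose the genes, replicate 1 exceeded 1.5 times the control mean in 23 genes and was under 0.5 times in 4, while the mean of the second series did so in 5 and 3. A mean of 2 libraries varies less than 1 library, and the rule held only replicates 2 and 3 of day 3 below day 11. These day 3 counts therefore do not measure how far the series differ. Without replicate 1 of day 3, 61 of the 69 still met the rule.

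Most day 11 ratios were close to the limit, and the list depended on single libraries. Of the 69 genes, 13 met the rule in each of the 9 cases that leave out 1 control, day 3 or day 11 library. They were gene_9247, gene_434, gene_6984, gene_11753, gene_4001, gene_11126, gene_2718, gene_2377, gene_2031, gene_11774, gene_10586, gene_4114 and gene_9935, picked out by this count after their values were seen. Leaving out control replicate 2 or 3 kept 38 or 41 of the 69. In gene_11753 the controls held 47.5, 43.7 and 35.6 CPM, day 3 held 36.0, 35.8 and 43.0, and day 11 held 113.6, 63.3 and 117.5, so the rise was present in all day 11 libraries but uneven.

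**Figure D5:**
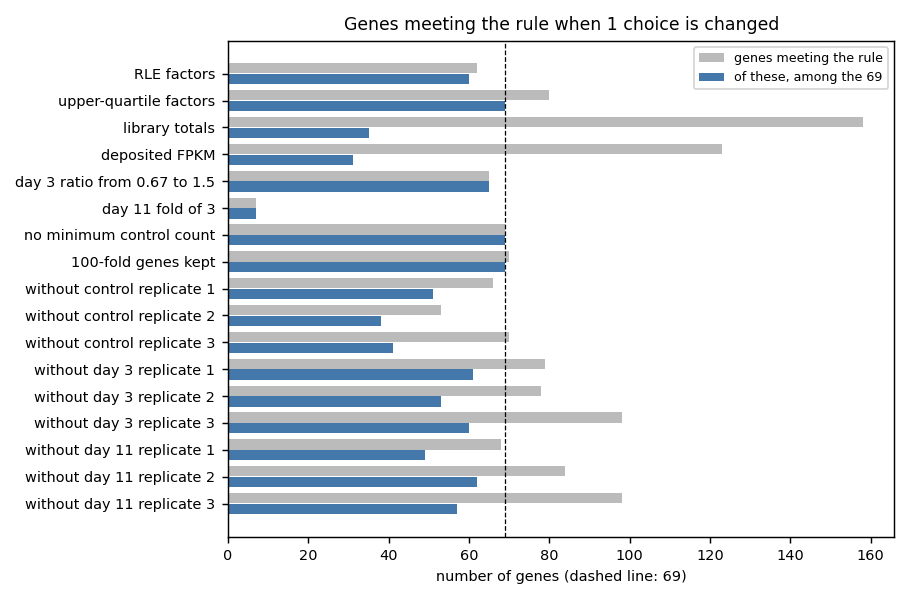
Number of genes that meet the rule when 1 choice is changed (grey bars) and how many of them are among the 69 (blue bars). With library totals 158 genes met it and 35 of these were among the 69. With deposited FPKM 123 met it and 31 were among the 69, and without 1 library 53 to 98 met it.

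At the limits themselves, gene_4475 was inside at a day 3 ratio of 1.490 and gene_3009 outside at 1.50011, and gene_11961 was inside at 0.542 with gene_7138 outside at 0.451. For the day 11 ratio gene_11414 was inside at 2.00 and gene_1329 outside at 1.98, and 1116 reference genes failed that limit only. For the floor of 5 CPM at day 11, gene_1445 was inside at 5.04 and gene_11359 outside at 4.82. In gene_6338 the lowest day 11 library was 1.01 times the higher second-series library of day 3, and in gene_8593 just outside it was 0.9995 times. For the range within a group gene_8429 was inside at 62.3-fold and gene_2399 was the only gene left out by that limit alone, at 218-fold. The control count of the member nearest that limit was 69 in gene_9935, and 0 genes failed that limit alone.

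All 69 genes passed the filter on low counts, and 68 had all 3 controls at or above its level, so they did not pass through day 11 alone. The deposited length, which adds up all transcripts of a gene, had a median of 5085 bases in the 69 and of 5580.5 bases in the 10770 reference genes tested, with the middle 50% of genes from 2267 to 17318 and from 2237 to 14310 bases.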

How the data were processed

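Poly-A RNA of 15 mycelium libraries was sequenced in pairs of reads, per the labels' protocols. Tools named in the submitters' processing notes are StringTie, HISAT2, DESeq2 and DESeq 1.10.1, with no role given. No source used here gives the genome build. Deposited by the authors were estimated counts per gene, written as whole numbers, FPKM, and positions of loci they had assembled. All 409 comparisons of loci with a single transcript (16 to 38 in a library) put the count within 2% of the product of FPKM, length and 1 scaling value per library. This includes the unnumbered day 5 library against the only FPKM column left for that day. The authors also deposited a length per gene, which equalled the sum over transcripts in 338 of 338 assembled loci with several, and whether FPKM used it in such genes is not known. Whether replicates were separate cultures is not stated beyond the word biological, so p-values measure the spread between these libraries.

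Counts were used as deposited in R 4.3.3 with edgeR 4.0.16 (TMM, filterByExpr, robust quasi-likelihood, 11386 genes, group and library series as terms, 9 residual degrees of freedom). The printed SE is the log2 fold change over the square root of F. CPM are without a series term, so fitted changes need not equal ratios of means. On simulated counts for 11386 genes, 18% of 2-fold and 78% of 4-fold changes of day 7 against day 5 were recovered. Recovery was counted by the edgeR adjusted p under 0.05 alone, without the 2-fold limit of a call. The changed genes, 100 of each size, were drawn above a minimum mean count. The simulation used the dispersion trend over genes and no scatter of single genes around it. DESeq2 1.42.0 and limma 3.58.1 on log2(FPKM + 1) and log2(FPKM + 0.1), other scalings, and fits without single libraries were alternatives. Genes and lists were chosen with earlier results of these data known. Single genes were named by rank: the 4 with the largest day 11 ratio to control, the 8 largest and 4 smallest day 7 ratios, the 5 highest in day 11 FPKM, the 3 smallest p in each direction between days 5 and 7, and those nearest each limit. Others are marked as chosen after their values were seen.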

Additional observations from a re-analysis of the deposited data

How the results depend on the processing

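The count of 0 members called between days 5 and 7 was the same in each fit run for that contrast (not run in the first series alone), the 15 that leave out 1 library included, and the members' median log2 fold change between those days stayed from 0.13 to 0.22 in these fits (leaving out 1 library, 0.1271 to 0.2142). Counts against the control moved more. The number called higher at day 7 (17) was 39 with library totals, 33 and 38 with limma on log2(FPKM + 1) and log2(FPKM + 0.1), and 11 without the series term. At day 5 (12) these were 31, 21, 28 and 2. The first series alone has 1 library at each wood day, so calls from that fit are not given. Leaving out 1 library gave 11 to 18 and 9 to 15. With a replicate block beside the series term they were 10 and 5. Calls over all genes, both directions together, moved as well. At day 7 they numbered 1421 in the main fit, 2294 with library totals and 1795 and 2365 with limma. Without the series term they were 1498 and with the block 1092. In the same order they were 1138, 1775, 1317, 1776, 1188 and 818 at day 5. Whether the replicate numbers pair the libraries is not stated. Deviations of same-numbered libraries from their group means correlated by 0.449 and 0.0932 between days 5 and 7, the first of these pairs being the first series. Those of days 5 and 7 correlated by -0.063 to 0.076 with the controls, and days 3 and 11 were not examined. With the block 0 members were called between days 5 and 7. The rule gave 158 genes with library totals, 123 with FPKM, 7 at 3-fold, and 53 to 98 without 1 library. The 3 genes with day 7 wholly above day 5 became 5 with library totals, 24 in the second series alone and 7 to 14 without 1 library, where fewer libraries are compared. Shares of all genes were counted only for all libraries with TMM (3.67%) and for the second series alone (18.3%). The sign turned for gene_1332 between days 5 and 7 (0.27 in the second series alone), for gene_10025 (0.015 and 0.012 with limma on FPKM, pseudocounts 1 and 0.1) and for gene_11387 at day 7 against control (-0.15 with the replicate block). Without 1 library the value of gene_1332 ran from -1.72 to 0.35 and that of gene_10025 from -0.73 to 0.0021. Causes were not tested. With 3 libraries a group, 2-fold changes are often missed.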

Other observations

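Among the 69 genes, 2 pairs have consecutive identifiers, gene_2377 with gene_2378 and gene_4308 with gene_4309. No source used here tells whether numbers follow gene order on the scaffolds. In the first pair gene_2377 had a control mean of 2.64 ± 0.0498 CPM (SD, n = 3) and a day 5 mean of 5.25 ± 0.995, where gene_2378 was still at 55.9 ± 4.33 against 43.9 ± 21.0. In the second pair gene_4308 stood at 7.80 ± 1.24 CPM at day 3 and 25.0 ± 8.48 at day 11, and gene_4309 at 2.31 ± 0.314 and 6.27 ± 1.19 CPM. Day 3 libraries of gene_4308 held 7.18, 6.99 and 9.23 CPM against controls of 14.2, 8.98 and 11.9.

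Deposited FPKM and CPM scaled by TMM gave unlike pictures of day 3. In FPKM, 35 of the 69 genes were above 1.5 times the control mean at day 3, where by choice 0 were in CPM, and with CPM by library totals 34 were. At day 11 all 69 were 2-fold or more above the control in CPM scaled by TMM, by choice of the genes. They were so in FPKM and with library totals too. Library totals raised the log2 ratio of day 11 to control by a median of 0.44 over TMM. The count of 69 is therefore no independent support from another scale. In gene_2031, chosen after its values were seen, the scales differed in direction at day 3, with 16.4 ± 1.60 against 12.8 ± 1.13 CPM in the control (SD, n = 3) and 5.45 ± 0.480 against 6.98 ± 2.81 FPKM. Its control libraries held 13.8, 11.6 and 13.2 CPM but 3.73, 8.59 and 8.60 FPKM. The FPKM of this gene was thus not proportional to its CPM even within a group.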
